A study of Homo sapiens with 6 samples.

Results

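Integrins and the proteins that tie them to the actin cytoskeleton were described in one comparison of TFDP1-targeted and control eHAP cells. The genes were chosen by name: integrin alpha subunits, integrin beta subunits and 17 adaptors of the focal adhesion, which are talins, vinculin, paxillin, ILK, parvins, PINCH proteins, kindlins, the kinase FAK (PTK2), p130Cas (BCAR1), zyxin and tensins. Of the 42 genes in GENCODE 29 that the names cover, 35 have a row in the authors' deposited table of 15794 human genes, namely 12 alpha subunits, 6 beta subunits and all 17 adaptors. ITGA8, ITGA11, ITGAL, ITGAM, ITGAX, ITGB2 and ITGB6 were not analysed here.

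The 6 samples of polyadenylated RNA form 2 groups: 3 biological replicates of eHAP cells given guide RNAs against TFDP1, labelled knockout, and 3 control replicates, labelled wild-type with no knocked-out gene. eHAP is a haploid human line engineered from HAP1 cells, which trace back to a chronic myeloid leukaemia, and it grows attached to plastic. The cells of the treatment protocol expressed Cas9, received a plasmid with the guides and a puromycin resistance gene, were kept in puromycin from 24 to 72 h, and were collected at 5 days. No isolation of single clones is described in the labels, so each knockout sample may hold a mixture of edited and unedited cells. Each tube held 500000 eHAP cells and 10000 Drosophila S2 cells as a spike-in. TFDP1 encodes DP1, with which most E2F factors form the dimers that bind DNA.

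Values per sample were not used here. Each row of the authors' deposited table holds the log2 fold change of 1 gene, its mean level as log2 CPM (read counts scaled to library size), the likelihood ratio of the test with its p-value, and the adjusted p (FDR). Replicate values, their spread and the library depths are therefore unknown, and the authors' edgeR likelihood ratio test is the only measure of replicate error. A gene is called here when its adjusted p is under 0.05. Which group is the numerator of the fold changes is not stated in the sources used here. TFDP1 itself had a log2 fold change of 1.17 at 226 CPM in the authors' deposited table (adjusted p = 1.08e-283). A gene is called positive when it was higher on the side of the comparison where TFDP1 transcript was higher, and negative when it was lower there. Whether that side is the knockout or the control is not settled by these values, since an edited gene need not lose its transcript. Intervals are approximate: they span 1.96 standard errors on each side, and each standard error was taken as the absolute log2 fold change over the root of the likelihood ratio.

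Integrins are paired receptors, each made of an alpha and a beta subunit, that hold cells to the extracellular matrix. The alpha subunit largely sets which ligand is bound, and the short tail of the beta subunit recruits talin and kindlin, which switch the receptor on. A second layer of adaptors, with vinculin, paxillin, ILK and FAK among them, links the receptor to actin filaments and passes on signals. The E2F and DP family is known for its targets in the cell cycle. Promoter sequence of a few of the genes is shown first, since E2F and DP dimers bind at promoters.

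RefSeq promoter windows on GRCh38.p14 were matched by symbol for 27 of the 35 genes, with 52 windows in all, because several genes have more than 1 annotated start. Only the 250 bases before each start were searched, on both strands. The long E2F letters TTTCCCGC or TTTGGCGC were in the windows of 0 of the 27 genes, against 2.36% of all 27305 symbols. The shorter core TTCCCGC or TTGGCGC, which lies inside the long letters, was found in 2 genes, LIMS1 and TNS3, against 9.40% of symbols. The letters GGAATG, bound by TEAD factors, were found in 6 genes, namely ITGA5, ITGA10, ITGB1, PXN, TNS1 and VCL, against 14.3% of symbols. The CArG box of SRF was found in 0 of the 27 genes, against 1.44%. Genes with several windows have more chances of a match, and a match is a description of letters only.

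The 2 genes with the short E2F core are printed because they went opposite ways in the comparison, and ITGA5 and VCL because they are the called adhesion genes with the TEAD letters and a single annotated start that lay above the median level. Each line gives 250 bases, 5′ to 3′ on the gene's strand, ending just before the start; capitals mark the E2F core in LIMS1 and TNS3 and the TEAD letters in ITGA5 and VCL. LIMS1 has 4 RefSeq windows and the first along the gene is shown (chr2:108534220-108534469, plus strand). TNS3 has 3, of which the one with the match is shown (chr7:47537473-47537722, minus strand). The ITGA5 window is chr12:54419267-54419516 on the minus strand, and that of VCL chr10:73997866-73998115 on the plus strand.
LIMS1: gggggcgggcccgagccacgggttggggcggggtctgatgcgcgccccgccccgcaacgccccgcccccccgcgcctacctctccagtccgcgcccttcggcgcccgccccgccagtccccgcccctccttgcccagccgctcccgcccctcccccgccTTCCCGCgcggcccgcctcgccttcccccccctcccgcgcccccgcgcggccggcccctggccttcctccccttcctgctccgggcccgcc
TNS3: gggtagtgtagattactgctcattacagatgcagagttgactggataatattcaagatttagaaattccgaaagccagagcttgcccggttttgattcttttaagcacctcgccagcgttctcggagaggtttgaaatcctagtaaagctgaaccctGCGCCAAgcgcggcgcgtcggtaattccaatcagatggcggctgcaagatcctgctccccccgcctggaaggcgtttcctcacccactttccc
ITGA5: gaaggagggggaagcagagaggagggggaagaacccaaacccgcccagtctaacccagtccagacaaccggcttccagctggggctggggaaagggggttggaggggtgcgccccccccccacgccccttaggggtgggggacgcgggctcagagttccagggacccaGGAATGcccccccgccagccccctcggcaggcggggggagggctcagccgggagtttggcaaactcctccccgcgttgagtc
VCL: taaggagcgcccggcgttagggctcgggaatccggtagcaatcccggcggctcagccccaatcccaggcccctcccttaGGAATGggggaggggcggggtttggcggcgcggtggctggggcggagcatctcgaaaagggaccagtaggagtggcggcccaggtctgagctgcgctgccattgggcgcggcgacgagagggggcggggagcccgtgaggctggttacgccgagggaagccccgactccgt

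In LIMS1 the core lies 91 to 85 bases before the start and in TNS3 93 to 87 bases before, where it reads on the opposite strand. GC makes up 84.0% of the LIMS1 window and 51.2% of the TNS3 window. The TEAD letters lie 82 to 77 bases before the start of ITGA5 and 171 to 166 bases before that of VCL.

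Of the 35 genes, 25 were called in the authors' deposited table, 8 positive and 17 negative. Over all 15794 rows 39.5% were called, 17.3% positive and 22.2% negative. Calls are more frequent among abundant genes, and 20 of the 35 reached the median level of all rows, 23.5 CPM. Among those 20, 17 were called, 6 positive and 11 negative, where 51.9% of all rows at that level were called, 25.4% positive and 26.5% negative. The 15 genes below it gave 2 positive and 6 negative calls, where 27.2% of all rows were called, 9.27% positive and 17.9% negative. The median log2 fold change was -0.14 over the 35 genes and -0.03 over all rows.

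The changes were small where the genes were abundant. None of the 20 genes at or above the median level differed by 1.5-fold, where 3.82% of all rows at that level were called with such a difference, and the median fold of their called members was 1.15. Of the 35 genes 5 were both called and at least 1.5-fold apart, beside 9.33% of all rows. They were PARVA, LIMS2, ITGB7 and ITGB8 on the negative side and ITGA10 on the positive side. All 5 had mean levels under 3 CPM and so were among the 15 genes below the median level, where 14.8% of all rows passed both criteria.

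**Figure D1:**
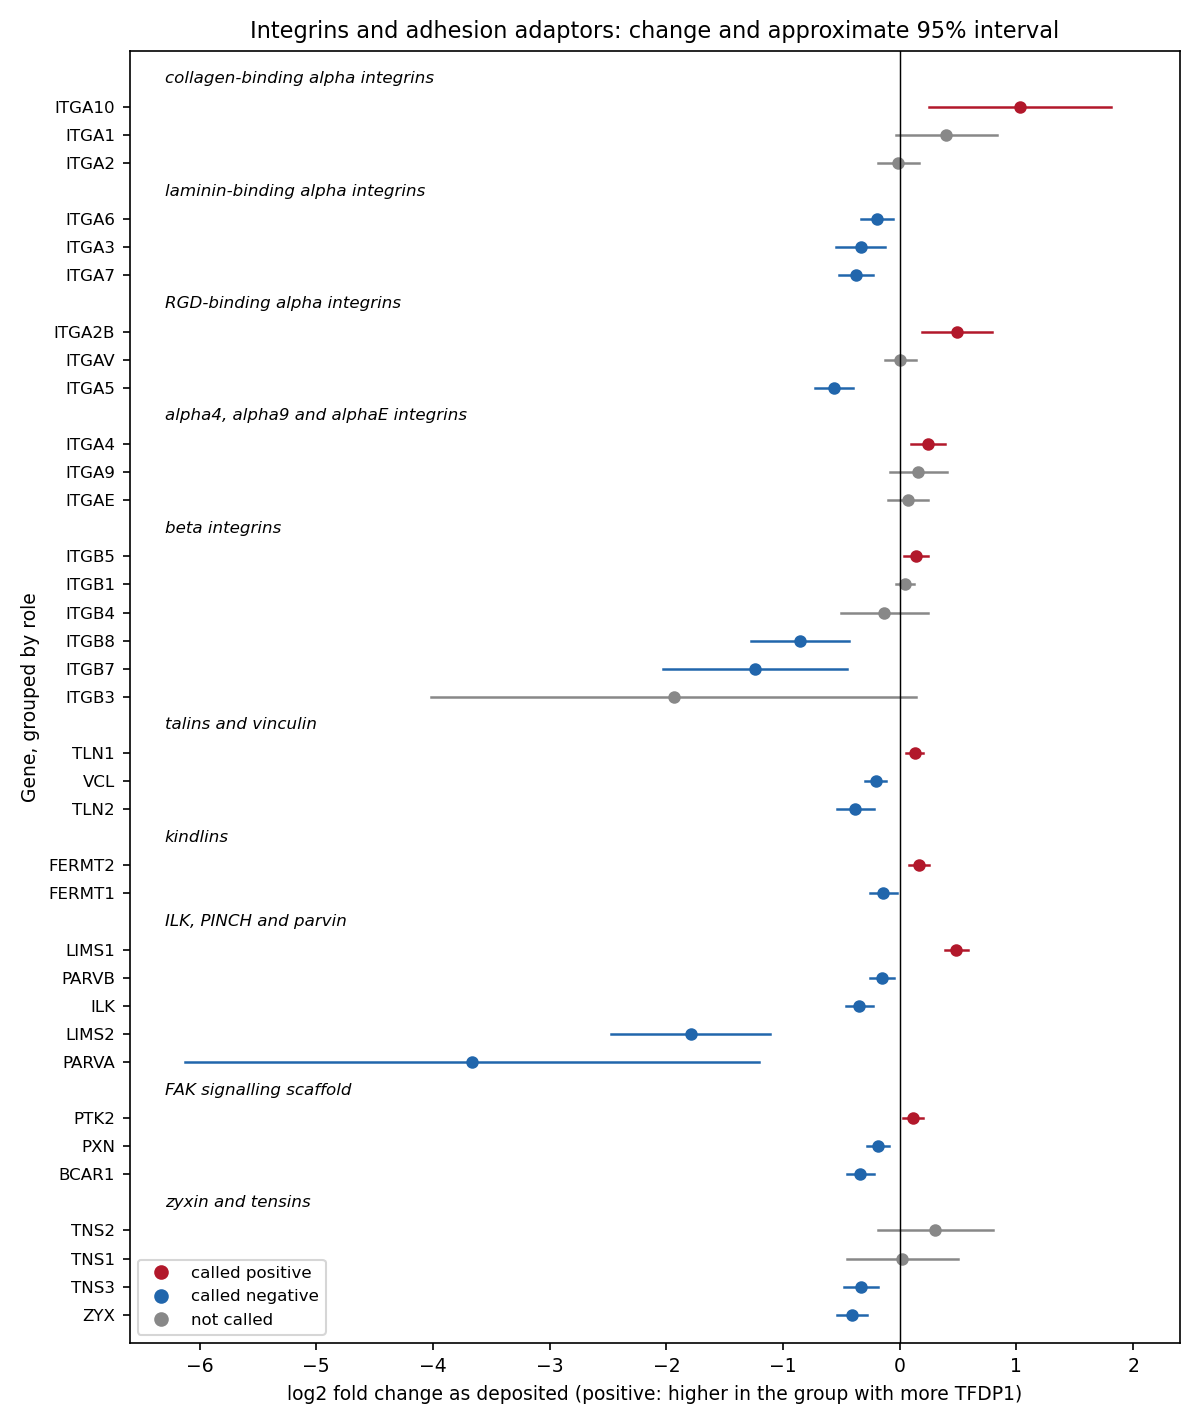
Log2 fold change as deposited (x axis; positive means higher on the side with more TFDP1) for the 35 genes by role, with approximate 95% intervals; colour gives the call. The abundant adaptors sit between -0.41 and 0.49 with short intervals, and PARVA and ITGB3, at 0.169 and 0.146 CPM, have the widest.

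The split by direction depended on the centring. Re-centred on the median of 77 ribosomal protein genes, a shift of 0.08 on the log2 scale, the 35 genes gave 9 positive and 13 negative calls, and 62.5% of all called rows were positive, against 43.9% as deposited. FERMT1, ITGA6, PARVB and PXN lost their negative call under it, ITGB1 gained a positive one, and no called gene changed sign. A negative call below therefore reads as lower relative to the deposited scaling, and the sources used here do not say whether the authors scaled the libraries on human reads or on the spike-in.

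All 3 laminin-binding alpha subunits were called negative, where 22.2% of all rows were. ITGA3, ITGA6 and ITGA7, whose receptors hold cells to laminins of basement membranes, had a median of -0.33 on the log2 scale. ITGA7 had a log2 fold change of -0.38 at 28.4 CPM in the authors' deposited table (adjusted p = 2.89e-06), ITGA3 one of -0.33 at 11.4 CPM (0.00752) and ITGA6 one of -0.19 at 76.4 CPM (0.0197). These are differences of 1.30-fold, 1.26-fold and 1.14-fold. The smallest of them, in ITGA6, did not remain called after re-centring on ribosomal proteins (adjusted p = 0.200), and that in ITGA3 not after removal of length and GC trends (0.0709).

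Subunits that bind the RGD motif of fibronectin, vitronectin and fibrinogen were split. ITGA5 (ENSG00000161638.10, chromosome 12, 54395261 to 54419460, minus strand), the alpha subunit of the main fibronectin receptor, had the largest change among integrins above the median level. Its log2 fold change was -0.56 at 32.0 CPM in the authors' deposited table, or 1.48-fold, with an approximate interval of -0.73 to -0.40 and an adjusted p of 2.31e-10. ITGAV, whose product pairs with several beta subunits and binds vitronectin, was at 0.01 with an interval of -0.13 to 0.14 and was not called (adjusted p = 0.961), so that a difference beyond 1.10-fold lay outside its interval. ITGA2B (ENSG00000005961.18, chromosome 17, 44372180 to 44389505, minus strand), the platelet fibrinogen receptor subunit, was positive at 0.49, or 1.40-fold, at 5.31 CPM (interval 0.19 to 0.79, adjusted p = 0.00627). Its partner in platelets, ITGB3, was at only 0.146 CPM.

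The collagen-binding subunits were mostly scarce. ITGA2 was at -0.01 and 21.8 CPM in the authors' deposited table and was not called (adjusted p = 0.949, interval -0.19 to 0.17). ITGA1 was at 0.40 and 2.50 CPM, also not called (0.162). ITGA10, which binds collagen of cartilage, was called positive at 1.03 (adjusted p = 0.0306), but at 0.749 CPM its interval reached from 0.25 to 1.81. The remaining alpha subunits, ITGA4, ITGA9 and ITGAE, gave 1 positive call, where 17.3% of all rows were called positive. ITGA4 (ENSG00000115232.13, chromosome 2, 181457202 to 181536187, plus strand), a receptor subunit for VCAM1 and fibronectin that is best known from leukocytes, was at 0.24, or 1.18-fold, and 60.7 CPM (interval 0.10 to 0.39, adjusted p = 0.00500). ITGA9 and ITGAE were at 0.16 and 0.07 and were not called.

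ITGB1, the beta subunit shared by most alpha subunits named here, was the most abundant integrin transcript at 179 CPM and was not called. Its log2 fold change was 0.04 in the authors' deposited table, with an interval of -0.04 to 0.12 that leaves out differences beyond 1.09-fold (adjusted p = 0.464). ITGA5, ITGA3, ITGA6 and ITGA7, which pair with it, were negative at -0.56 to -0.19, and ITGA4, another partner, was positive. After re-centring on ribosomal proteins ITGB1 stood at 0.12 and was called positive (adjusted p = 0.00562). ITGB5 (ENSG00000082781.11, chromosome 3, 124761948 to 124901418, minus strand), an ITGAV partner that binds vitronectin, was positive at 0.14, or 1.10-fold, and 76.8 CPM (interval 0.03 to 0.25, adjusted p = 0.0324).

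The other beta subunits were at 3.34 CPM or less. ITGB8 (ENSG00000105855.9, chromosome 7, 20330702 to 20415754, plus strand), which with ITGAV activates latent TGF-beta, was negative at -0.86, or 1.81-fold, and 2.66 CPM in the authors' deposited table (interval -1.28 to -0.43, adjusted p = 4.19e-04). ITGB7, a leukocyte subunit, was negative at -1.24 and 0.765 CPM (adjusted p = 0.00787). ITGB4, the hemidesmosome subunit, was at -0.13 (0.647), and ITGB3 at -1.94 with an interval from -4.02 to 0.14 (0.155). Neither of these 2 was called.

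**Figure D2:**
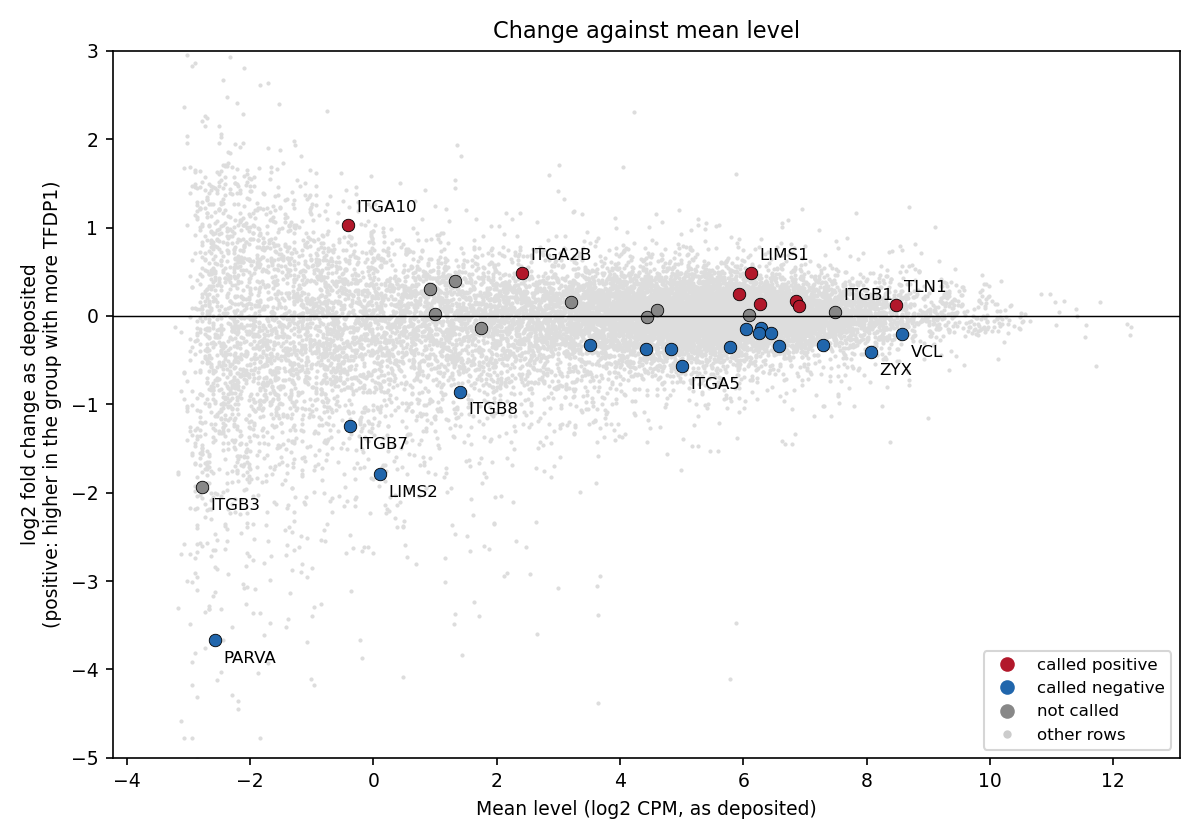
Log2 fold change (y axis) against mean level in log2 CPM (x axis) in the authors' deposited table, with the 35 genes coloured by call over all rows in grey; 17 rows lie outside the y range. LIMS2, ITGB7 and PARVA, the 3 called genes furthest below 0, lie at the low end of the levels. VCL (-0.21), TLN1 (0.13) and ZYX (-0.41) lie nearer to 0 than these, at the high end.

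The talins and vinculin, which carry force from the integrin tail to actin, differed in sign. TLN1, the broadly expressed talin, was positive at 0.13 and 355 CPM in the authors' deposited table (interval 0.05 to 0.20, adjusted p = 0.00347). Its paralogue TLN2 (ENSG00000171914.16, chromosome 15, 62390526 to 62844631, plus strand) was negative at -0.38, or 1.30-fold, and 21.3 CPM (interval -0.54 to -0.22, adjusted p = 3.02e-05). Vinculin, VCL, which binds stretched talin, was negative at -0.21 and 382 CPM (interval -0.30 to -0.12, adjusted p = 4.11e-05). The intervals of TLN1 and TLN2 did not overlap, but the difference between the paralogues was not tested, since it needs values per sample.

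Kindlins, the second class of proteins that bind beta tails, also had 1 gene on each side. At or above the median level, 25.4% of all rows were called positive and 26.5% negative. FERMT2 (ENSG00000073712.14, chromosome 14, 52857268 to 52952435, minus strand), the widely expressed kindlin-2, was positive at 0.16, or 1.12-fold, and 116 CPM in the authors' deposited table (interval 0.08 to 0.25, adjusted p = 6.85e-04). It stood at 0.02 after removal of length and GC trends and was then not called (adjusted p = 0.815). FERMT1, kindlin-1 of epithelia, was negative at -0.14 and 78.2 CPM (adjusted p = 0.0449) and was not called after re-centring on the median of all rows (0.0989) or on ribosomal proteins (0.450).

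ILK, PINCH and parvin form a ternary complex that links integrins to actin, and all 5 genes were called, 1 positive and 4 negative, where 39.5% of all rows were called, 17.3% positive and 22.2% negative. LIMS1 (ENSG00000169756.16, chromosome 2, 108534355 to 108687246, plus strand), which encodes PINCH-1, had the smallest p of the 35 genes. In the authors' deposited table it was positive at 0.49, or 1.40-fold, and 69.9 CPM, with an interval of 0.39 to 0.59 and an adjusted p of 1.48e-20. Its paralogue LIMS2 (ENSG00000072163.19, chromosome 2, 127638381 to 127681786, minus strand), which encodes PINCH-2, was negative at -1.79, or 3.46-fold, with an interval of -2.47 to -1.11 (adjusted p = 2.46e-06). At 1.08 CPM it was scarce beside LIMS1. ILK, the pseudokinase at the centre of the complex, was negative at -0.35 and 55.1 CPM (interval -0.46 to -0.23, adjusted p = 8.95e-08).

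The parvins bind ILK and actin. PARVB was the abundant parvin, at 65.8 CPM, and was, in the authors' deposited table, negative at -0.15 (adjusted p = 0.0152). PARVA was negative at -3.67, but its level of 0.169 CPM gave an interval from -6.13 to -1.21 (adjusted p = 0.0129), and a fold at such a level rests on few reads. At a threshold of 0.01 neither parvin was called.

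FAK and its scaffold had 1 positive and 2 negative calls among 3 genes. Of all rows at or above the median level, 25.4% were called positive and 26.5% negative. PTK2, which encodes FAK, was positive at 0.11 and 120 CPM in the authors' deposited table (adjusted p = 0.0396), and was not called after removal of length and GC trends (0.286). The docking protein genes BCAR1 and PXN were negative at -0.34 (adjusted p = 2.16e-07) and -0.19 (4.64e-04), at 95.5 and 87.4 CPM. The call of PXN was lost after re-centring on ribosomal proteins (adjusted p = 0.0597) and after removal of length and GC trends (0.0911).

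Zyxin and the tensins are found with actin at mature adhesions. ZYX (ENSG00000159840.15, chromosome 7, 143381080 to 143391111, plus strand), a LIM protein that gathers where adhesions are under tension, was negative at -0.41, or 1.33-fold, and 268 CPM in the authors' deposited table (interval -0.54 to -0.28, adjusted p = 4.65e-09). TNS3 was the abundant tensin, at 157 CPM, and was negative at -0.33 (interval -0.48 to -0.18, adjusted p = 7.40e-05). TNS1 and TNS2 were near 2 CPM, at 0.02 and 0.30, and were not called; their intervals allowed differences of up to 1.42-fold and 1.74-fold.

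Levels can be compared between genes only per transcript length. Divided by the length of the longest GENCODE 29 transcript, ZYX was highest at 108 CPM per kb, followed by VCL at 47.8, ITGB1 at 47.3 and TLN1 at 40.2 CPM per kb. ITGB1 exceeded every alpha subunit, of which ITGA4 at 14.5, ITGA6 at 13.6 and ITGAV at 9.70 CPM per kb were highest. Among beta subunits ITGB5 followed ITGB1 at 17.6 CPM per kb, and the next, ITGB4, was at 0.564. Among the adaptors called in opposite directions, TLN2 was at 1.80 CPM per kb, LIMS1 at 15.7 and LIMS2 at 0.224, and FERMT2 at 19.3 and FERMT1 at 15.2 CPM per kb. Among RGD-binding subunits, ITGA2B, called positive, was at 1.59 and ITGA5, called negative, at 6.40 CPM per kb. These levels are means over both groups, and their spread over samples is unknown, so close neighbours such as VCL and ITGB1, or FERMT2 and FERMT1, cannot be ordered.

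**Figure D3:**
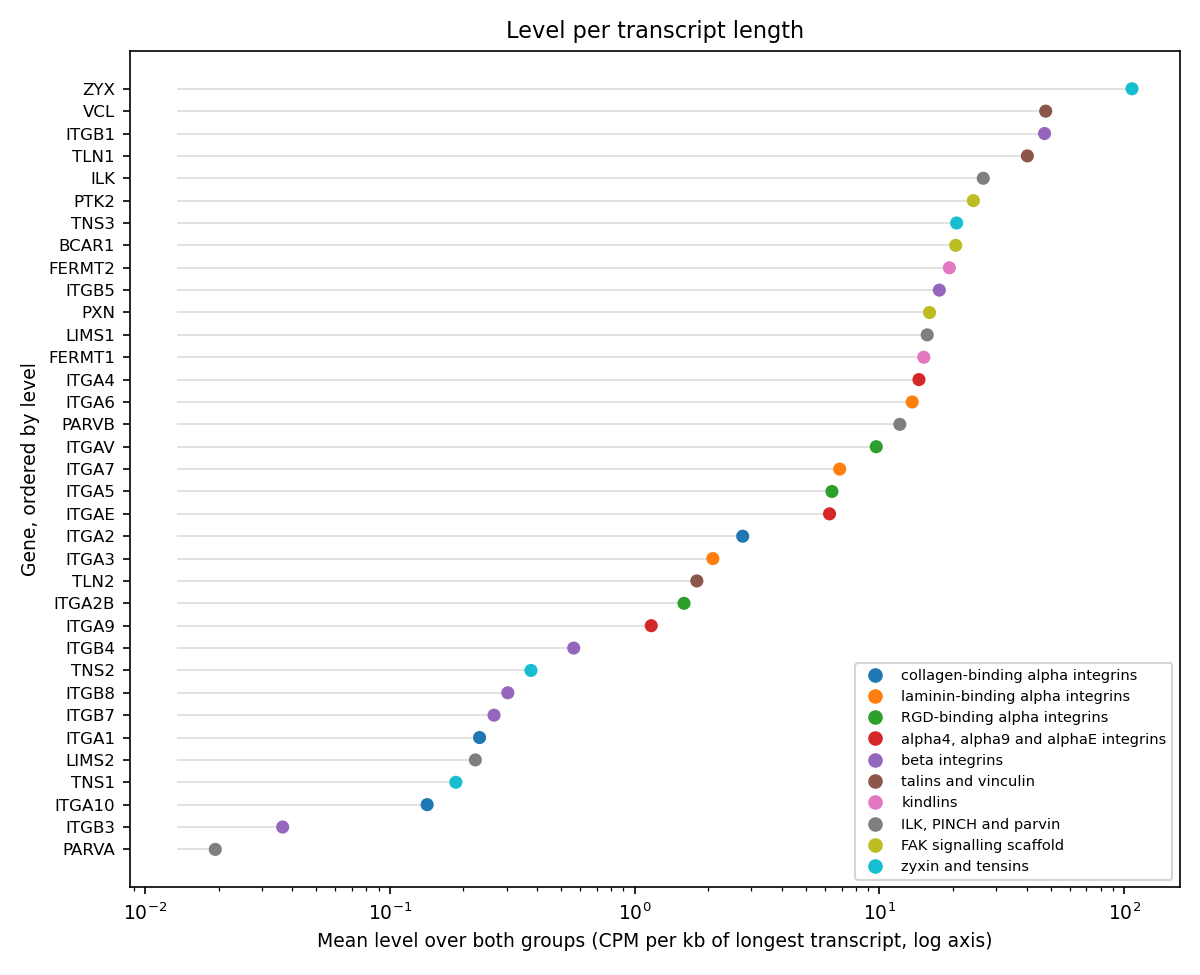
Mean level over both groups in CPM per kb of the longest transcript (log axis) for the 35 genes, coloured by role. ZYX, VCL, ITGB1 and TLN1 are at the top with 40.2 to 108 CPM per kb, and ITGB3 and PARVA are at the bottom under 0.1.

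Some values touch other genes in the annotation, and the strand setting of the authors' counting is not stated in the sources used here. Of the 50-base stretches in the longest ILK transcript, 49.98% also lie, on the opposite strand, in transcripts of TAF10, a TFIID subunit gene that was itself negative at -0.20 in the authors' deposited table. For ITGB7 the share with ZNF740 on the opposite strand was 40.7%, and ZNF740, at 50.1 CPM, was not called. PXN shared 14.1% with PXN-AS1, which was at 3.34 CPM and not called. ITGA9 shared 5.69% with ITGA9-AS1, which was not called. METTL7B (-1.39) beside ITGA7, GALK1 (-0.35) beside ITGB4, CREB3 (-0.24) beside TLN1 and SPRYD3 (0.41) beside TNS2 overlap the opposite strand of those genes and were called in the authors' deposited table, while BLOC1S1 beside ITGA7 and AP3M1 beside VCL were not; each shares under 1% of the stretches. LIMS1 shared 12.4% on its own strand with LIMS3 and as much with LIMS4, neither of which has a row. On its own strand ITGB3 shared 56.2% with AC068234.1, ITGB1 15.0% with AC022149.1 and ITGA1 3.98% with PELO, which was at 41.8 CPM and not called. Reads from stretches on the same strand, and without strand in the counting those on the opposite strand too, cannot be assigned to 1 gene, so the values of these genes are uncertain to that extent.

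Genes that act with these receptors were counted in 4 further lists. Of 35 integrin ligand genes in the authors' deposited table, 21 were negative, 6 positive and 8 not called, and their median on the log2 scale was -0.39. The laminin chains LAMB1 (-1.45) and LAMA2 (-1.53), the collagen chain COL6A1 (-0.58) and agrin, AGRN (-0.74), had the smallest p of the list, each with an adjusted p of at most 6.88e-55. The fibronectin gene FN1, whose product ITGA5 and ITGB1 bind, was positive at 0.25 and 93.9 CPM (adjusted p = 1.27e-05), opposite in sign to ITGA5. The ligands thus had 60.0% of their genes called negative, against 33.3% of the 18 integrin subunits and 22.2% of all rows.

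Of 65 other adhesion and integrin signalling genes 23 were negative and 11 positive, 52.3% called, close to the 51.9% of all rows at or above the median level, and the median on the log2 scale was -0.00074. The actin elongation factor VASP (-0.76), the integrin-binding tetraspanin CD151 (-0.47), caveolin CAV1 (-1.26) and the zyxin relative TRIP6 (-0.51) led by p in the authors' deposited table. After re-centring on ribosomal proteins this list had 23 positive and 19 negative calls, where 62.5% of all called rows were positive and 37.5% negative. Of 44 actomyosin genes 20 were negative (45.5%) and 9 positive (20.5%), beside 26.5% and 25.4% of all rows at or above the median level, and their median was -0.11. Caldesmon CALD1 (-1.05), tropomyosin TPM1 (-0.87) and LIMA1 (-0.72) were negative, and the formin DIAPH1 (0.38) was positive. After re-centring on ribosomal proteins that list gave 14 positive and 13 negative calls, beside 4226 and 2536 over all 15794 rows. Of 23 regulators and targets of SRF and YAP, transcriptional systems known to respond to adhesion and tension, 13 were negative (56.5%) and 7 positive (30.4%), beside the same 26.5% and 25.4%, and their median was -0.36. The YAP targets CYR61 (-0.72) and ANKRD1 (-3.39) and the factor gene TEAD3 (-0.84) were negative, while AMOTL1, an angiomotin, was positive at 0.58. CYR61 and CTGF, both negative, are also in the ligand list.

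**Figure D4:**
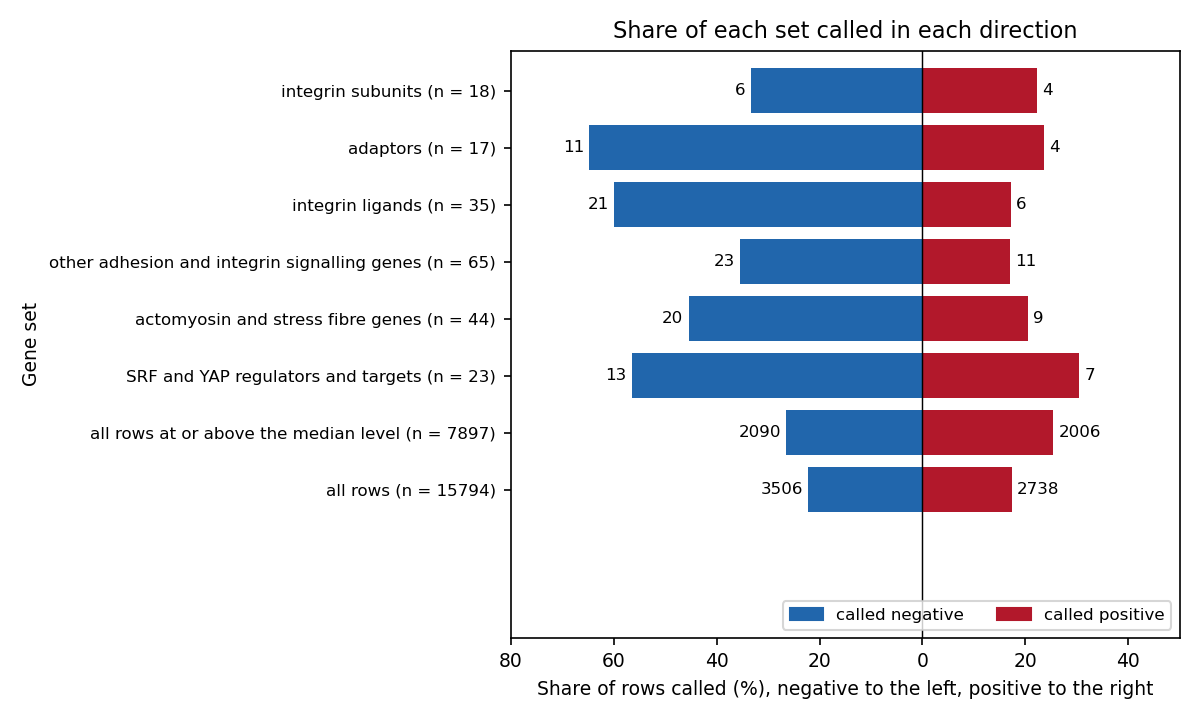
Share of each gene set called negative (left) and positive (right) in the authors' deposited table, in percent, with the number of genes beside each bar. The adaptors have 11 negative and 4 positive of 17 genes and the ligands 21 and 6 of 35. Rows at or above the median level are split nearly evenly, at 2090 and 2006, and all rows less so, at 3506 and 2738. Both sets also hold genes below the median level.

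Markers of other cell types were counted beside these genes, where 22.2% of all rows were called negative and 17.3% positive. Fibroblast and mesenchymal markers gave 6 negative and 1 positive of 8, led by SPARC (-3.47), THY1 (-2.66), POSTN (-2.00) and PDGFRA (-1.36), and their mean levels sum to 669 CPM, of which VIM holds 487. Epithelial markers gave 3 negative of 6, with KRT8 at -2.94, KRT18 at -0.52 and EPCAM at -4.18 in the authors' deposited table, and a sum of 59.0 CPM. EPCAM was at only 0.515 CPM, so its fold rests on few reads. Neuronal markers gave 4 negative and 1 positive of 10, led by TUBB3 (-1.13), NES (-0.90), SYP (1.71) and NEFL (-1.27), with a sum of 373 CPM. Blood markers gave 2 negative of 9, KIT (-0.98) and TAL1 (-1.20 at 1.06 CPM), with a sum of 40.3 CPM. The only endothelial marker with a row, KDR, was at 0.146 CPM and not called. Negative calls were more frequent than over all rows in the fibroblast, epithelial and neuronal lists. In the blood list their share was 22.2%, the same as over all rows. POSTN, FN1 and COL1A1 are in both the fibroblast list and the ligand list. The part of a change in cell state or composition in the negative adhesion genes was not tested. The human cells in each tube were eHAP cells. Fewer cells in a given state and less RNA per cell cannot be told apart in such samples.

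**Figure D5:**
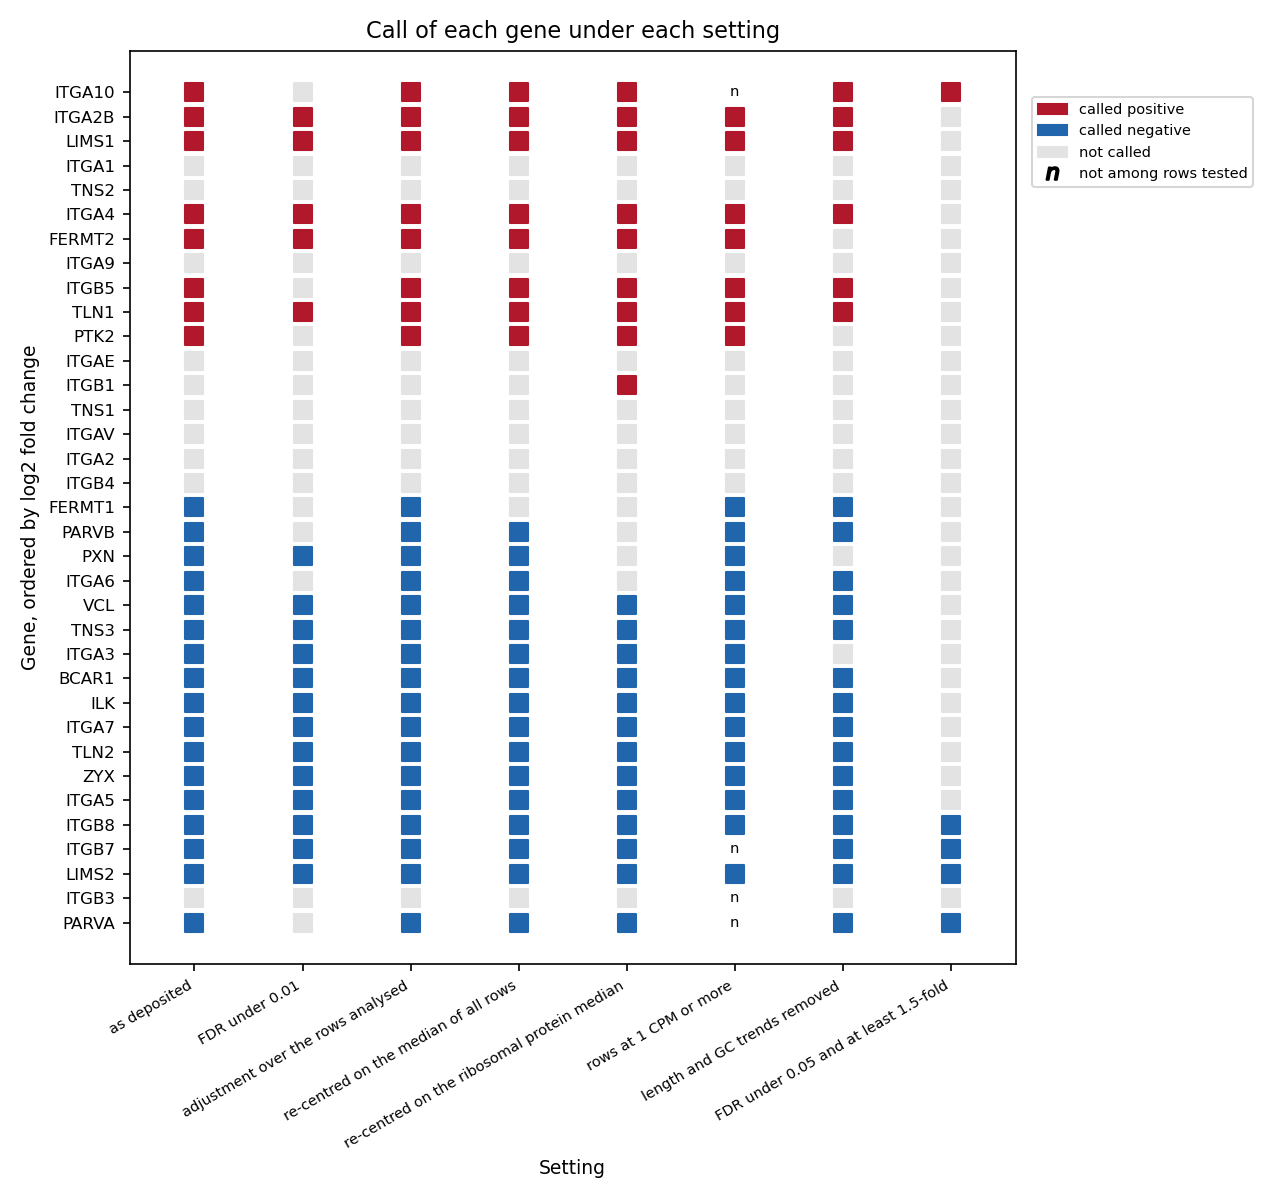
Call of each of the 35 genes (rows, ordered by log2 fold change) as deposited and under 7 alternatives (columns), where n marks genes not among the rows tested. The calls of 14 genes, BCAR1, ILK, ITGA2B, ITGA4, ITGA5, ITGA7, ITGB8, LIMS1, LIMS2, TLN1, TLN2, TNS3, VCL and ZYX, were the same in every column apart from the last, which asks for a 1.5-fold change and keeps only ITGB8 and LIMS2 of these 14.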

How the data were processed

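The data are the authors' deposited table of 1 comparison, 3 TFDP1 knockout and 3 control samples of poly(A) RNA. Per the submitters' processing notes the reads went through Trimmomatic, HISAT2, featureCounts and edgeR on hg38 and dm6; the sources used here give no versions or settings. Per the file headers, the authors' columns are a log2 fold change, a mean level in log2 CPM, a likelihood ratio (a score on 1 degree of freedom), a p-value and an FDR (adjusted p-value), deposited without values per sample. No new test over samples was made; depth is unknown, and the intervals rest on the authors' test.

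The genes, roles, 4 pathway lists and 5 marker lists were chosen with earlier results of these data known. The text gives every called member, the 5 called members per direction with the largest change at 1 CPM or more in full, and the 4 genes of each list with the smallest p; FN1, VIM and KDR were named after their values were seen. Positions and transcripts came from GENCODE 29 (GRCh38), matched by symbol for 14777 rows and all 35 members; promoters came from RefSeq. Alternatives used normal p-values from the fold change over its approximate standard error, adjusted by Benjamini-Hochberg over all rows, and lowess trends with a span of 0.3 (statsmodels 0.14.6, scipy 1.17.1, numpy 2.4.6, pandas 2.3.3, matplotlib 3.10.9, Python 3.11.15). Tested on simulated data for 15794 genes, re-centring on the median recovered 191 of 200 changed genes with 12 false calls. Trend removal recovered 176 of 187 over 14777 genes with 6 false calls. Only 200 of the 15794 genes were changed there, whereas 39.5% of rows were called in the authors' deposited table. Recovery at such a share of changed genes was not tested.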

Additional observations from a re-analysis of the deposited data

How the results depend on the processing

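Against 25 called genes, 8 positive and 17 negative, a threshold of 0.01 gave 18 calls, 5 positive and 13 negative. Over all rows 30.5% were called at 0.01. At 0.05, adding a minimum of 1.5-fold gave 5 calls in all, 1 positive and 4 negative, in 3 roles instead of 10. The 4 further lists then gave 32 calls instead of 108. In these totals CYR61 and CTGF, which are in both the ligand list and the SRF and YAP list, were counted once. Under that minimum the positive and negative calls were 3 and 13 for ligands and 0 and 6 for other adhesion genes. They were 0 and 5 for actomyosin and 0 and 6 for SRF and YAP. Over all rows 9.33% were called under that minimum, and 73.4% of those calls were negative. AMOTL1, positive at 1.4994-fold, fell just short of the minimum, and COL6A1, negative at 1.50002-fold, just passed it. The other alternatives, namely adjustment over the rows analysed, both centrings, rows at 1 CPM or more and removal of length and GC trends, gave 21 to 25 calls, and no called gene changed sign under any of the 7. ITGA10, ITGB3, ITGB7 and PARVA were below 1 CPM and could not be tested at that filter. No paired analysis was possible because the deposited table holds no values per sample, and leaving out replicates was not run for the same reason. Precision follows level: differences under 1.06-fold for VCL and 5.50-fold for PARVA lay within 1.96 approximate standard errors.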

Other observations

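All 20 called genes among the regulators and targets of SRF and YAP are given here from the authors' deposited table. The Hippo kinases LATS1 (0.38) and LATS2 (0.44), the coactivators YAP1 (0.24) and WWTR1 (0.20), the SRF coactivator MKL2 (0.37), the factor TEAD4 (0.19) and the angiomotin AMOTL1 (0.58) were positive. The factors TEAD2 (-0.37) and TEAD3 (-0.84), the SRF coactivator MKL1 (-0.18), the angiomotins AMOT (-0.39) and AMOTL2 (-0.47) and the LIM protein AJUBA (-0.48) were negative. Of the other genes in the list, CYR61 (-0.72), CTGF (-0.47), ANKRD1 (-3.39), AXL (-1.37 at 0.914 CPM), EGR1 (-1.16), FOS (-0.96) and JUNB (-0.36) were negative. FOSL1 (-0.03), SRF (0.05) and TEAD1 (-0.12) were not called.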
